A study of Mus musculus with 18 samples.

Results

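Toll-like receptors (TLRs) were followed in bone marrow-derived macrophages (BMDMs), by the rows of the gene table named *Tlr1*, *Tlr2*, *Tlr3*, *Tlr4*, *Tlr5*, *Tlr6*, *Tlr7*, *Tlr8*, *Tlr9* and *Tlr13*. These are 10 of the 20615 genes in the table, and all 10 passed the filter on low counts that left 15789 genes for testing. BMDMs are macrophages grown from bone marrow, here for 7 days in medium with 20% supernatant of L929 cells as the source of M-CSF, from female mice 7 to 12 weeks old. The mice were C57BL/6 (B6) or C57BL/6.NOD-*Aec1Aec2*, the Sjögren's syndrome-susceptible strain (SjSS), a congenic line that carries the *Aec1* and *Aec2* intervals of the NOD mouse on a B6 background. In each strain, 3 samples were untreated (control), 3 received apoptotic cells (AC) and 3 received CpG, a DNA oligonucleotide with unmethylated CpG motifs that is an agonist of TLR9. The ACs were thymocytes killed with dexamethasone, given at 5 per BMDM for 2 h and washed away, and the cells were then kept for 3 h by the labels of the samples (4 h by the study's methods). CpG was given at 1 µM for 6 h. The study's figure legend describes the wash and the further 3 h without limiting them to ACs. The length of exposure thus differed between ACs and CpG. The strain of the thymocytes that each sample received is not given in the sources used here. The study's methods name thymi of both B6 and SjSS mice, and thymocytes of the same strain for its cytokine assay. If they were matched here as well, the strain of the BMDMs and that of the ACs cannot be told apart in any strain comparison with ACs. The study's figure legend names 3 mice of each strain for the control, AC and CpG cultures. Whether equally numbered control, AC and CpG samples shared a mouse is not stated in the sources used here. The p-values therefore measure the spread between these samples. If such samples shared a mouse, the samples of a strain were not independent, which the model used for the tests did not take into account.

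TLRs are membrane proteins with an outer horseshoe of leucine-rich repeats that binds microbial or damaged-cell molecules and an inner TIR domain that recruits adaptors. *Tlr1*, *Tlr2*, *Tlr4*, *Tlr5* and *Tlr6* encode receptors of the cell surface, which bind lipopeptides (TLR2 paired with TLR1 or TLR6), lipopolysaccharide (TLR4) and flagellin (TLR5). *Tlr3*, *Tlr7*, *Tlr8*, *Tlr9* and *Tlr13* encode receptors of endosomes, which bind double-stranded RNA (TLR3), single-stranded RNA and its breakdown products (TLR7 and TLR8), CpG DNA (TLR9) and a stretch of bacterial ribosomal RNA (TLR13). Endosomal TLRs are carried from the endoplasmic reticulum by UNC93B1. All of these receptors except TLR3 signal through MyD88, and TLR3 and TLR4 signal through TRIF. In macrophages they switch on inflammatory cytokine and interferon genes, and the nucleic acid of engulfed dead cells is a possible ligand of those in endosomes.

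The values were estimated read counts of each gene, with totals from 30688336 (control SjSS replicate 2) to 57139662 (control B6 replicate 1) per sample. They are given as CPM, the counts scaled to a common library total by TMM, the edgeR method that corrects for differences in library composition. All 18 samples entered 1 model, and each comparison is a contrast of its group means under edgeR's quasi-likelihood test, with p-values adjusted over all genes tested by the method of Benjamini and Hochberg. A gene that passed the test had an adjusted p under 0.05, and "rose" and "fell" are used of such genes only. A gene was called where its log2 fold change was also over 1.3 in size, the threshold of the study. SE stands for the standard error of such a fold change. AC and CpG responses of a strain share its control samples, and the strain differences use the same samples again, so that these comparisons are not independent of each other. The label of the cells was checked with 7 macrophage markers (*Adgre1*, *Itgam*, *Csf1r*, *Cd68*, *Mertk*, *Fcgr1* and *Lyz2*), all of which were expressed in every sample, with a summed level of 14835 to 22812 CPM.

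The sequences that bear on these measurements come first. *Tlr1* and *Tlr6* are neighbours on chromosome 5, and reads that match both genes could have been divided between them by the authors' counting. Of the stretches as long as 1 sequencing read in the GENCODE M21 transcripts, 256 were identical between both genes, 7.80% of those of *Tlr1* and 7.01% of those of *Tlr6*. By the study's methods the reads were paired, and the mate of a read was not considered in these percentages. Their longest identical coding run was 229 bases, against 13 between *Tlr7* and *Tlr8* and 15 between *Tlr8* and *Tlr9*. The start of that run is shown with the 40 bases before it, at chr5:64925706-64925805 in *Tlr1* and chr5:64953997-64954096 in *Tlr6* (GRCm38, minus strand of both), in the coding part of each gene. The capital marks the only base of the 100 that differs, just before the run begins.
Tlr1: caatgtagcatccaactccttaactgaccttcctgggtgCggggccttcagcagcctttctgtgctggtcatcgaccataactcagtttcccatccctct
Tlr6: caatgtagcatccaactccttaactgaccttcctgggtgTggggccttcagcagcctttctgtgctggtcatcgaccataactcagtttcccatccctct
Of the other members, only *Tlr3* shared such stretches with any other gene, 186 (3.28%) with the antisense strand of *Gm45542*. How far shared reads moved the levels and fold changes of *Tlr1*, *Tlr6* and *Tlr3* was not tested. The percentages do not bound it for *Tlr6*, whose level was below that of *Tlr1* (33.2 against 210 CPM on average in CpG treated B6 BMDMs).

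Promoters are shown for *Tlr2*, *Tlr3* and *Tlr9*, the members whose AC response differed most between the strains. The windows are those of RefSeq on GRCm38.p6, and the 250 bases before the RefSeq start and 10 after it are printed for *Tlr2* (chr3:83841599-83841858, minus strand), *Tlr3* (chr8:45410371-45410630, minus strand) and *Tlr9* (chr9:106222348-106222607, plus strand). Capitals mark matches to 4 motifs searched on both strands, GGG and CC with any 5 bases between them (kB type), GAAA and GAAA with any 2 bases between them (ISRE type), TGANTCA (AP-1 type) and GAGGAAGT (PU.1 type).
Tlr2: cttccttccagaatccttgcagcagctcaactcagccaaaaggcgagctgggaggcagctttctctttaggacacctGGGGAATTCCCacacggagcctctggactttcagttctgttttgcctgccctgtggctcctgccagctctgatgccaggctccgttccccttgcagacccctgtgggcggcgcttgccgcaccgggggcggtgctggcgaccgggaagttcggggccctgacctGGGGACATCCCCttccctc
Tlr3: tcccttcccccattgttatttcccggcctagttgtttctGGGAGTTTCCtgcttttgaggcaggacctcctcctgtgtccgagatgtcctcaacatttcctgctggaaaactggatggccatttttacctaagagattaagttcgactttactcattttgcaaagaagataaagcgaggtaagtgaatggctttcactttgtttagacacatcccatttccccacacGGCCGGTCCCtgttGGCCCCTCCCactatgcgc
Tlr9: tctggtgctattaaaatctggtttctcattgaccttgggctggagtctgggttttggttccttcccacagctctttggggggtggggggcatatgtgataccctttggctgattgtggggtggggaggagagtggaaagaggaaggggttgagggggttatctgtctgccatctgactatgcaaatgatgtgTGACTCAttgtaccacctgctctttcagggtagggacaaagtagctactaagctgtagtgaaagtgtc
The kB-type letters lay in 50.8% of all 32851 promoter windows of that table, the ISRE-type letters in 3.44%, the AP-1-type letters in 7.81% and the PU.1-type letters in 3.20%. In *Tlr2* there were 7 kB-type matches, which overlap in 2 clusters beginning 173 and 9 bases before the start. In *Tlr3* there were 3, beginning 211, 23 and 9 bases before the start. *Tlr9* held an AP-1-type match 58 bases before the start and a PU.1-type match 10 bases after it, which lies past the printed stretch. Windows were found for 8 members, and 3 of their 10 windows held none of the 4 motifs, those of *Tlr8* and *Tlr13* and 1 of the 2 windows of *Tlr1*. Of the 2 windows of *Tlr6*, 1 held 2 overlapping ISRE-type matches (116 and 110 bases before the start) and the other 1 kB-type match. A match describes letters in a window and is not a binding site.

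Levels of different genes were compared per kb of exon (the union of the GENCODE M21 exons of a gene), as mean ± SD of the 3 samples of a group. In control B6 BMDMs the order was led by *Tlr13*, at 125 ± 9.37 CPM per kb, and *Tlr2*, at 88.7 ± 3.06. *Tlr8* and *Tlr7* followed, at 50.003 ± 3.78 and 46.8 ± 5.10 CPM per kb, and the samples of these neighbours in the order overlapped. *Tlr1* and *Tlr4* came next, at 17.3 ± 0.799 and 17.00 ± 1.20, and overlapped as well. Below them lay *Tlr9* (10.8 ± 0.286), *Tlr6* (5.93 ± 0.168), *Tlr3* (3.04 ± 0.436) and *Tlr5* (0.565 ± 0.0675 CPM per kb), each apart from its neighbours. Control SjSS BMDMs had *Tlr13* first as well, at 119 ± 13.5 CPM per kb. *Tlr2* came after *Tlr8* there, at 44.1 ± 8.01, with samples that overlapped those of *Tlr8* (47.6 ± 3.33) and of *Tlr7* below it (42.5 ± 5.84), and the order of the other members was that of control B6.

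In all 4 treated groups *Tlr2* was first in the order, its samples apart from those of the second gene. It held 24.3% of the summed per-length level of the 10 genes in control B6, 54.3% with ACs and 47.3% with CpG. In SjSS BMDMs its share was 14.5% in the control, 58.3% with ACs and 49.7% with CpG. The summed level itself was 365 ± 22.3 CPM per kb in control B6, 501 ± 39.3 with ACs and 408 ± 12.4 with CpG, and 303 ± 31.3, 734 ± 7.24 and 456 ± 32.9 in SjSS BMDMs. The 5 cell-surface receptors made up 35.5% of it in control B6 and 26.5% in control SjSS BMDMs, and between 64.1% and 67.5% in the 4 treated groups. The second place went to *Tlr13* in AC treated B6 (91.04 ± 1.04 CPM per kb) and CpG treated SjSS BMDMs (76.1 ± 7.27), to *Tlr1* in CpG treated B6 (62.7 ± 4.46) and to *Tlr7* in AC treated SjSS BMDMs (76.3 ± 5.20). *Tlr5* was last in every group.

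**Figure D1:**
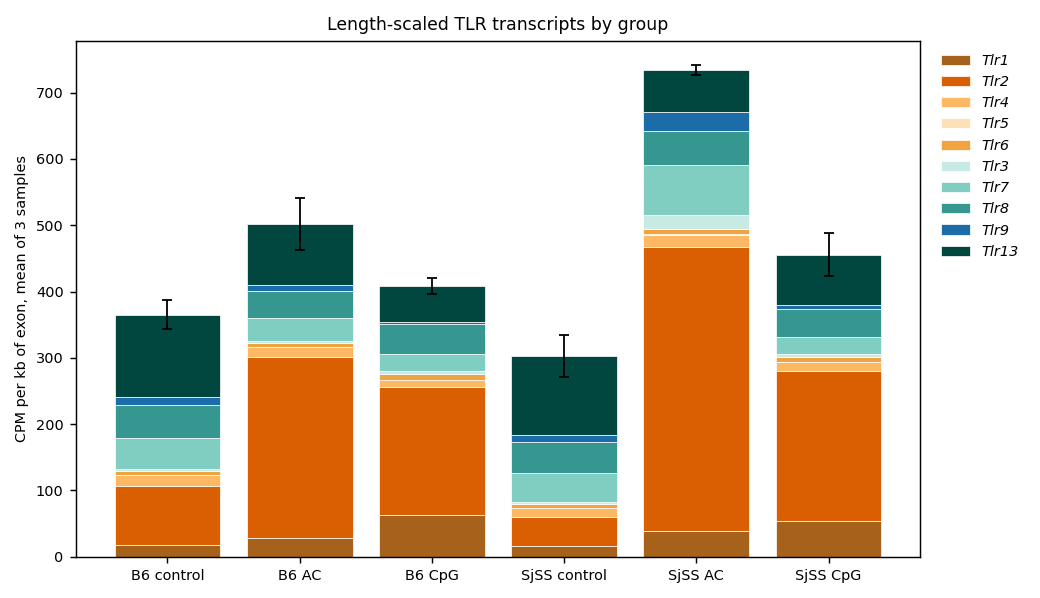
Stacked bars give the mean CPM per kb of exon of each of the 10 TLR genes in the 6 groups (3 samples each), with cell-surface receptors in orange and brown below and endosomal receptors in green and blue above; the error bar is the SD of the sum. *Tlr2* takes the largest part of each treated bar, and the AC treated SjSS bar is the tallest, at 734 CPM per kb.

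**Figure D2:**
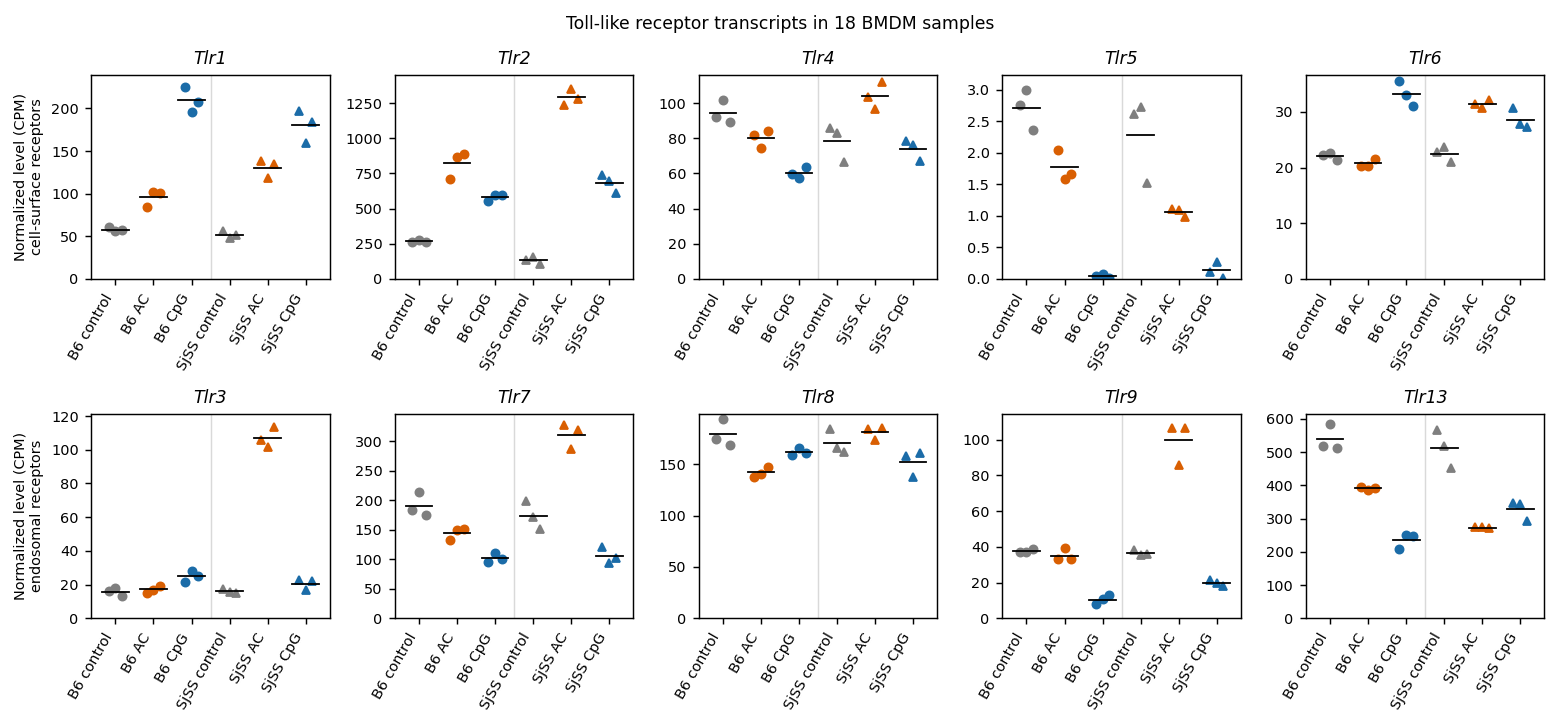
Each panel plots the CPM of 1 gene in all 18 samples (circles B6, triangles SjSS; grey control, orange AC, blue CpG), on its own linear axis from 0, with a line at the mean of each group. *Tlr2*, *Tlr3*, *Tlr7* and *Tlr9* stand highest in AC treated SjSS BMDMs, with all samples above those of every other group. *Tlr5* is near 0 in both CpG groups.

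The response to ACs addresses which of these receptor transcripts change when BMDMs are given dead cells, and whether they change alike in both strains. With ACs, *Tlr1* and *Tlr2* rose in both strains and *Tlr13* fell in both, while *Tlr4* and *Tlr7* fell in B6 and rose in SjSS BMDMs. *Tlr8* fell in B6 and *Tlr5* in SjSS BMDMs only, by the test of each strain. *Tlr3*, *Tlr6* and *Tlr9* rose in SjSS BMDMs and did not pass the test in B6. In B6 BMDMs, 1 member (*Tlr2*) was called higher, where 2.43% of all genes tested were, and 0 were called lower, where 2.04% of all genes were. In SjSS BMDMs, 4 members (*Tlr1*, *Tlr2*, *Tlr3* and *Tlr9*) were called higher, against 7.09% of all genes, and 0 lower, against 5.83%. At any fold change, 2 members rose and 4 fell in B6 BMDMs, where 20.0% and 18.3% of all genes did, and 7 rose and 2 fell in SjSS BMDMs, where 28.6% and 29.4% of all genes did. The median log2 fold change of the 10 members was -0.17 in B6 and 0.66 in SjSS BMDMs, and that of all genes tested was 0.00 and -0.02. The AC and control samples did not overlap for 7 members in B6, against 49.9% of all genes, and for 9 in SjSS BMDMs, against 63.9%. As these are bulk samples, fewer cells of a type and less RNA per cell cannot be told apart.

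Among the cell-surface receptors, *Tlr2* (chr3:83836272-83841768), the partner of TLR1 and TLR6 in binding lipopeptides, had the highest CPM. In B6 BMDMs it was at 262, 278 and 262 CPM in the control samples (replicates 1, 2 and 3) and at 709.5, 868 and 890.01 with ACs. In SjSS BMDMs it was at 137, 155 and 107 CPM in the control samples and at 1238, 1354 and 1281 with ACs. Every AC sample was thus above every control sample, and the SjSS samples were the lower ones without ACs and the higher ones with them. The log2 fold change was 1.62 (SE 0.11) in B6 (adjusted p = 1.02e-09, edgeR's quasi-likelihood test) and 3.28 (SE 0.11) in SjSS BMDMs (adjusted p = 1.46e-14). *Tlr1* (chr5:64924679-64933564), which pairs with TLR2 for triacylated lipopeptides, was at 60.98, 55.8 and 57.3 CPM in control B6 and 83.96, 102 and 100.6 CPM in AC treated B6 BMDMs. In SjSS BMDMs its values were 56.7, 47.7 and 51.1 CPM without and 138, 119 and 135 CPM with ACs, all 3 above every AC treated B6 sample. Its log2 fold change was 0.72 (SE 0.09) in B6 and 1.33 (SE 0.09) in SjSS BMDMs, close to the threshold of 1.3. Without AC treated SjSS replicate 1 or control SjSS replicate 2 it was 1.29 or 1.28, so that *Tlr1* was then not called.

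*Tlr6* (chr5:64952031-64960098), the partner of TLR2 for diacylated lipopeptides, lay between 20.3 and 22.6 CPM in the control and AC treated B6 samples, which overlapped. In SjSS BMDMs it rose from 22.8, 23.7 and 21.03 to 31.4, 30.7 and 32.04 CPM, a log2 fold change of 0.48 (SE 0.07). The more abundant *Tlr1* rose in the same samples, and the part of reads shared with it in this rise of *Tlr6* was not tested. *Tlr4* (chr4:66827584-66930285), the receptor for lipopolysaccharide, went the opposite way in the strains. In B6 BMDMs it was at 92.1, 102 and 89.3 CPM in the control and 81.7, 74.4 and 83.9 with ACs, a log2 fold change of -0.24 (SE 0.09) with an adjusted p of 0.0378 by the same test. It no longer passed without any 1 of control B6 replicates 1 and 2 and AC treated B6 replicates 1 and 2 (adjusted p = 0.0569, 0.168, 0.0641 and 0.162). In SjSS BMDMs *Tlr4* rose from 85.9, 82.9 and 66.7 to 104, 96.7 and 112 CPM, by 0.41 (SE 0.09) on the log2 scale. *Tlr5* (chr1:182954788-182976045), the receptor for flagellin, was the least abundant member, with 172, 144 and 133 counts in control B6 and 103, 84 and 75 in AC treated B6 BMDMs. Its counts were 142, 92 and 84 in control SjSS and 43, 52 and 44 in AC treated SjSS BMDMs. It fell in SjSS BMDMs, by a log2 fold change of -1.09 (SE 0.30), and did not pass the test in B6 (-0.61, SE 0.28, adjusted p = 0.0937). With only the groups compared in the fit *Tlr5* passed in B6 (adjusted p = 0.0169 by edgeR). Without control SjSS replicate 3 its log2 fold change in SjSS BMDMs was -1.32, past the threshold for a call.

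Of the endosomal receptors, *Tlr3* (chr8:45395665-45411081), the receptor for double-stranded RNA, had the largest interaction of strain and AC among the members. In B6 BMDMs it was at 16.3, 17.9 and 13.4 CPM without and 15.3, 16.8 and 19.4 CPM with ACs, and these samples overlapped. In SjSS BMDMs it was at 17.1, 15.7 and 15.3 CPM without and 106, 102 and 113 CPM with ACs. The control levels of both strains overlapped, and the AC treated SjSS samples lay apart from all other samples. The log2 fold change was 0.12 (SE 0.12) in B6 (adjusted p = 0.503, edgeR's quasi-likelihood test) and 2.74 (SE 0.12) in SjSS BMDMs (adjusted p = 6.14e-13). *Tlr9* (chr9:106222598-106226884), the receptor for CpG DNA, was highest in AC treated SjSS BMDMs as well. Its values were 37.1, 37.1 and 38.8 CPM in control B6 and 33.1, 39.3 and 32.9 in AC treated B6 BMDMs. They were 38.2, 35.3 and 35.8 CPM in control SjSS and 107, 85.7 and 106 in AC treated SjSS BMDMs, the only group of the 6 in which *Tlr9* exceeded 40 CPM. The log2 fold change was -0.10 (SE 0.12) in B6 (adjusted p = 0.544) and 1.45 (SE 0.12) in SjSS BMDMs (adjusted p = 3.87e-09).

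*Tlr7* (chrX:167304929-167330559), a receptor for single-stranded RNA, changed in opposite directions. It fell in B6 BMDMs from 184, 215 and 175 to 133, 149.6 and 152 CPM, a log2 fold change of -0.40 (SE 0.11). It rose in SjSS BMDMs from 198, 172 and 151 to 328, 288 and 319 CPM, a log2 fold change of 0.84 (SE 0.11). The treated and control samples did not overlap in either strain. *Tlr8* (chrX:167242696-167264330), its neighbour on the X chromosome and a close relative, fell in B6 BMDMs from 175, 195 and 169 to 137, 141 and 148 CPM, a log2 fold change of -0.34 (SE 0.07). In SjSS BMDMs it was at 184, 166 and 162 CPM without and 184, 174 and 186 with ACs, overlapping levels with a log2 fold change of 0.08 (SE 0.07). *Tlr13* (chrX:106143204-106160494), the receptor for bacterial ribosomal RNA, was the one endosomal member that fell in both strains. It went from 519, 585 and 512 to 396, 387 and 393 CPM in B6 and from 566, 518 and 451 to 274, 274 and 270.4 CPM in SjSS BMDMs. Its log2 fold change was -0.46 (SE 0.09) in B6 and -0.91 (SE 0.09) in SjSS BMDMs, the larger fall in the strain in which *Tlr3*, *Tlr7* and *Tlr9* rose.

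**Figure D3:**
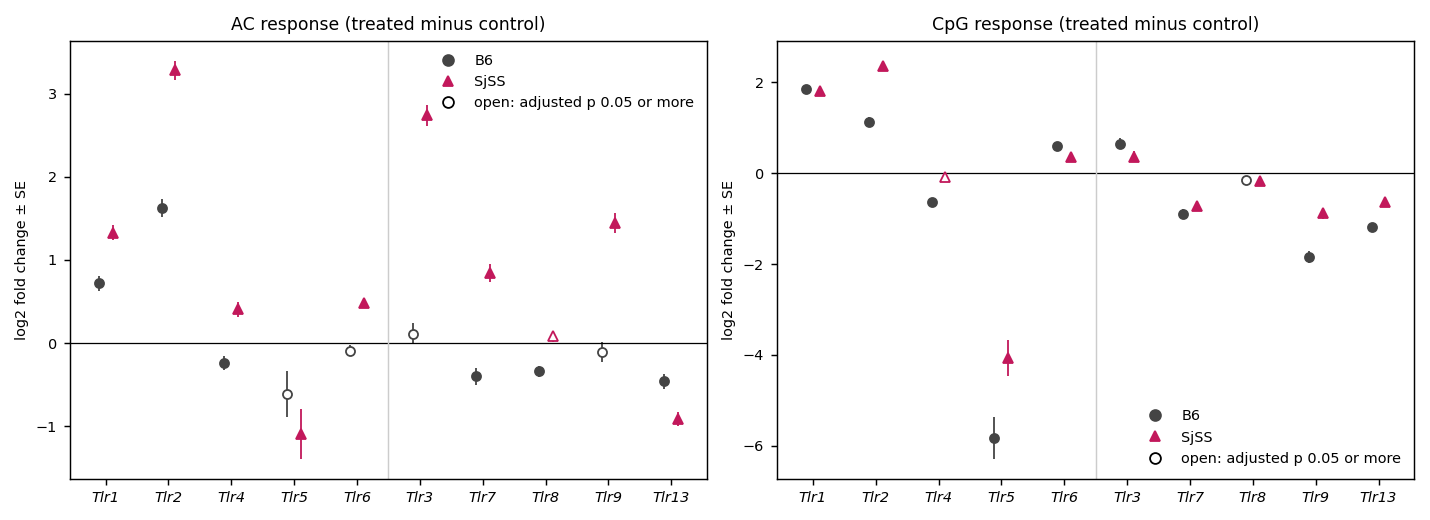
Points give the log2 fold change (treated minus control, 3 samples each) of the 10 TLR genes with the SE, for ACs on the left and CpG on the right, in B6 (circles) and SjSS BMDMs (triangles); open points have an adjusted p of 0.05 or more. With ACs the SjSS point is above the B6 point for 8 of the 10 genes, the exceptions being *Tlr5* and *Tlr13*, and with CpG *Tlr5* falls furthest.

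Whether the AC response differed between the strains was tested by the interaction term, the response in SjSS minus that in B6. The interaction was called higher for 3 members, *Tlr3* (2.62, SE 0.17), *Tlr2* (1.66, SE 0.15) and *Tlr9* (1.55, SE 0.17), against 4.76% of all genes, and lower for 0, against 2.77%. At any fold it passed the test for 8 members as higher in SjSS, where 19.6% of all genes did, and for 1 as lower, where 18.3% did. The other members with a higher response in SjSS were *Tlr7* (1.24, SE 0.15), *Tlr4* (0.65, SE 0.12), *Tlr1* (0.61, SE 0.13), *Tlr6* (0.57, SE 0.09) and *Tlr8* (0.42, SE 0.09). *Tlr7* was also called without control B6 replicate 3 (1.302) or control SjSS replicate 1 (1.35). The response of *Tlr13* was lower in SjSS, with an interaction of -0.45 (SE 0.12), and that of *Tlr5* did not pass the test (-0.48, SE 0.41, adjusted p = 0.391 by edgeR's quasi-likelihood test).

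The summed markers of the T lineage and of plasmacytoid and conventional dendritic cells were highest in the AC treated SjSS group. Those of B cells and neutrophils were not. Of the 14 T-lineage genes examined because the ACs were thymocytes, 3 passed the filter, and the 14 together were at 13.8 to 18.4 CPM in AC treated SjSS, 10.2 to 11.8 in control SjSS, 4.79 to 5.62 in AC treated B6 and 8.13 to 10.1 CPM in control B6 BMDMs. Most of it was *Cd4*, at 3.36 to 17.1 CPM over all samples, and the defining genes *Cd3d*, *Cd3e*, *Cd3g* and *Trac* were at most 0.181 CPM in any sample. The 5 markers of plasmacytoid dendritic cells, which carry much *Tlr7* and *Tlr9*, summed to 163 to 178 CPM in AC treated SjSS and 59.9 to 105 CPM in the other 5 groups. That sum was mostly *Tcf4* (59.3 to 174 CPM), and *Siglech*, a defining marker, was at most 0.0775 CPM in any sample. The 4 conventional dendritic cell markers in the table, of 5 in the list, summed to 2.61 to 3.45 CPM in AC treated SjSS and 1.09 to 2.16 CPM elsewhere, with *Flt3* at most 0.147 CPM. The 5 B cell markers summed to 9.41 to 26.8 CPM and were not highest in the AC treated SjSS group (12.97 to 13.5 CPM). The part of these cells in the TLR levels was not tested.

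CpG was the second stimulus, a ligand of TLR9 itself. With CpG, *Tlr1*, *Tlr2*, *Tlr3* and *Tlr6* rose in both strains, and *Tlr5*, *Tlr7*, *Tlr9* and *Tlr13* fell in both. In B6 BMDMs, 1 member (*Tlr1*) was called higher, against 5.86% of all genes, and 2 (*Tlr5* and *Tlr9*) were called lower, against 6.88%. In SjSS BMDMs, 2 members (*Tlr1* and *Tlr2*) were called higher, against 4.81% of all genes, and 1 (*Tlr5*) lower, against 4.45%. At any fold, 4 members rose and 5 fell in each strain, where 28.1% and 29.8% of all genes did in B6 and 27.8% and 26.4% in SjSS BMDMs. The fifth member that fell was *Tlr4* in B6 and *Tlr8* in SjSS BMDMs. The median log2 fold change of the members was -0.40 in B6 and -0.12 in SjSS BMDMs, and that of all genes -0.04 and -0.01. The CpG and control samples did not overlap for 10 members in B6, against 61.6% of all genes, and for 8 in SjSS BMDMs, against 60.5%.

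*Tlr1* was at 226, 196 and 208 CPM in CpG treated B6 and 197, 159.6 and 184 in CpG treated SjSS BMDMs, above all control and AC samples of both strains. Its log2 fold change was 1.85 (SE 0.09) in B6 (adjusted p = 2.84e-12, edgeR's quasi-likelihood test) and 1.80 (SE 0.09) in SjSS BMDMs (adjusted p = 6.74e-12). *Tlr2* reached 554, 596 and 597 CPM in B6 and 737, 699.8 and 614 CPM in SjSS BMDMs, levels between those of the control and AC samples of each strain. Its log2 fold change was 1.12 (SE 0.11) in B6, under the threshold for a call, and 2.36 (SE 0.11) in SjSS BMDMs. *Tlr6* rose to 35.5, 33.1 and 31.03 CPM in B6 (0.59, SE 0.06) and to 30.7, 27.8 and 27.2 CPM in SjSS BMDMs (0.35, SE 0.07). The part of reads shared with *Tlr1* in these rises of *Tlr6* was not tested. *Tlr4* fell to 59.9, 57.5 and 63.95 CPM in B6 (-0.64, SE 0.09). In SjSS BMDMs *Tlr4* was at 78.3, 76.4 and 67.1 CPM, which overlapped the control (-0.09, SE 0.09).

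*Tlr5* was nearly lost with CpG, with 2, 3 and 1 counts in the B6 samples and 5, 11 and 1 in the SjSS samples. In B6 the sum was 449 counts in the control and 6 with CpG, and the control level was 59.8 times that with CpG (exact 95% interval 27.3 to 164). In SjSS BMDMs the sums were 318 and 17 counts, a ratio of 16.8 (exact 95% interval 10.3 to 29.2). The intervals cover counting error only, and the test across all genes gave an adjusted p of 2.47e-09 in B6 and 5.5e-08 in SjSS BMDMs.

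*Tlr9*, the receptor for the ligand given, fell to 7.88, 10.7 and 12.8 CPM in B6 and to 21.4, 19.9 and 18.04 CPM in SjSS BMDMs. Both groups lay under all control samples, and every CpG treated B6 sample lay under every CpG treated SjSS sample. The log2 fold change was -1.85 (SE 0.13) in B6 (adjusted p = 3.34e-10, edgeR's quasi-likelihood test) and -0.88 (SE 0.12) in SjSS BMDMs (adjusted p = 5.58e-06). *Tlr7* fell to 95.05, 111 and 99.9 CPM in B6 (-0.91, SE 0.11) and 121, 93.6 and 103 CPM in SjSS BMDMs (-0.71, SE 0.11). *Tlr13* fell to 208, 249.97 and 248 CPM in B6 (-1.19, SE 0.09) and 348, 344 and 292 CPM in SjSS BMDMs (-0.64, SE 0.09). *Tlr3* was the endosomal member that rose with CpG, to 21.5, 27.8 and 25.2 CPM in B6 (0.65, SE 0.12) and 22.6, 16.7 and 22.4 CPM in SjSS BMDMs (0.36, SE 0.12, adjusted p = 0.0196 by the same test). In SjSS BMDMs the CpG and control samples of *Tlr3* overlapped, and it no longer passed without control replicate 2 or 3 or CpG replicate 1 or 3 (adjusted p = 0.0512, 0.0702, 0.0964 and 0.0873). *Tlr8* was at 159, 166 and 161 CPM in B6 (-0.15, SE 0.07, adjusted p = 0.0685 by the same test) and 158, 138 and 161 CPM in SjSS BMDMs (-0.16, SE 0.07, adjusted p = 0.0457). It no longer passed in SjSS BMDMs without control replicate 1 or 2 or CpG replicate 2 (adjusted p = 0.225, 0.0549 and 0.243), and it passed in B6 without control replicate 3 (adjusted p = 0.0367). By DESeq2's Wald test, an alternative to edgeR, *Tlr8* did not pass in SjSS BMDMs either (adjusted p = 0.0507). With only the groups compared in the fit its adjusted p there was 0.0967 by edgeR. Without the filter on low counts it passed in B6 (adjusted p = 0.0472 by edgeR). In B6 the same-numbered control and CpG samples deviated together, and with the replicate block within strain *Tlr8* passed there as well (-0.15, adjusted p = 0.0402 by edgeR).

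The interaction of strain and CpG was called for 0 members in either direction, against 0.285% of all genes as higher and 0.329% as lower. At any fold, 4 members passed as higher in SjSS, where 3.23% of all genes did, and 0 as lower, where 2.62% did. They were *Tlr2* (1.24, SE 0.15), whose rise was larger in SjSS, *Tlr9* (0.97, SE 0.18) and *Tlr13* (0.55, SE 0.12), whose fall was smaller, and *Tlr4* (0.56, SE 0.13), which fell in B6 only by the test of each strain. *Tlr2* was called without control SjSS replicate 2 (1.36) or CpG treated SjSS replicate 3 (1.31), and *Tlr5*, at 1.75 (SE 0.76) with all samples, without CpG treated SjSS replicate 3 (2.25). The markers of neutrophils, of which 2 of 5 were in the table (*S100a8* and *S100a9*), summed to 8.69 to 11.6 CPM in CpG treated B6 and 4.64 to 4.84 CPM in CpG treated SjSS BMDMs, against 1.84 to 4.87 CPM in the other groups. Their part in the CpG responses was not tested.

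Without treatment, the strains differed in 2 members, both lower in SjSS BMDMs, where 10.6% of all genes passed the test as lower, and 0 were higher, where 9.04% of all genes were. None of the 10 was called by the fold threshold, against 1.3% of all genes as higher and 0.716% as lower. *Tlr2* was at 267 ± 9.21 CPM in B6 and 133 ± 24.1 in SjSS BMDMs (mean ± SD), a log2 difference of -1.01 (SE 0.11) with an adjusted p of 2.73e-06 by edgeR's quasi-likelihood test. *Tlr4* was at 94.5 ± 6.65 CPM in B6 and 78.5 ± 10.3 in SjSS BMDMs, a log2 difference of -0.27 (SE 0.09) with an adjusted p of 0.0389. *Tlr4* no longer passed without control B6 replicate 1 or 2 or control SjSS replicate 3 (adjusted p = 0.0663, 0.175 and 0.211). With only the groups compared in the fit its adjusted p was 0.0891 by edgeR. The samples of the strains did not overlap for these 2 members, against 34.4% of all genes, and overlapped for the other 8, among them *Tlr7* (-0.14, SE 0.10) and *Tlr9* (-0.05, SE 0.12). *Tlr2* lies on chromosome 3, where 24.3% of the genes tested differed between the untreated strains, and *Tlr5* on chromosome 1, where 28.5% did, against 14.7% to 22.2% on the other chromosomes. Within 1 Mb of *Tlr2*, 1 of 7 other genes tested passed (*Plrg1*, 0.18), and within 1 Mb of *Tlr5* 4 of 13 did. The borders of the NOD intervals are not given in the sources used here.

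With ACs, all 10 members differed between the strains, 8 of them higher in SjSS BMDMs, where 24.0% of all genes were, and *Tlr5* and *Tlr13* lower, where 25.5% were. *Tlr3* (2.64, SE 0.12) and *Tlr9* (1.5033, SE 0.12) were called higher, against 6.24% of all genes, and 0 members lower, against 2.69%. The samples of the strains did not overlap for any of the 10 members, against 60.7% of all genes. *Tlr7* was higher in SjSS by 1.10 (SE 0.11), from a mean of 145 ± 10.2 to 312 ± 21.2 CPM, and *Tlr2* by 0.65 (SE 0.11). *Tlr6* (0.60, SE 0.07), *Tlr1* (0.45, SE 0.09), *Tlr4* (0.38, SE 0.09) and *Tlr8* (0.35, SE 0.07) differed by less. *Tlr13* was lower in SjSS, with a log2 difference of -0.52 (SE 0.09). *Tlr5* had a log2 difference of -0.73 (SE 0.30) with an adjusted p of 0.0491 by edgeR's quasi-likelihood test, and without any 1 of the 6 AC samples its adjusted p was between 0.0625 and 0.153. By the same test its adjusted p was 0.0574 with the scaling of DESeq2 and 0.0528 without the filter on low counts.

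With CpG, 0 members were called in either direction, against 1.82% of all genes as higher and 0.792% as lower in SjSS BMDMs. At any fold *Tlr9* (0.92, SE 0.13), *Tlr13* (0.48, SE 0.09) and *Tlr4* (0.29, SE 0.09) were higher in SjSS, where 10.2% of all genes were, and *Tlr6* (-0.22, SE 0.06) was lower, where 9.57% were. The samples of the strains did not overlap for 5 members, against 34.2% of all genes. *Tlr4* no longer passed without any 1 of CpG treated B6 replicates 1 and 2 and SjSS replicates 1 and 2 (adjusted p = 0.0727, 0.105, 0.113 and 0.0919). *Tlr6* no longer passed without CpG treated B6 replicate 1 or 2 or SjSS replicate 2 or 3 (adjusted p = 0.122, 0.0548, 0.0876 and 0.0902). With only the groups compared in the fit its adjusted p was 0.0911 by edgeR. *Tlr2*, lower in SjSS without treatment, was at 582 ± 24.5 CPM in B6 and 683 ± 63.1 in SjSS BMDMs, a log2 difference of 0.23 (SE 0.10) that did not pass the test. *Tlr5*, with few counts in these groups, did not pass the test (adjusted p = 0.155 by edgeR's quasi-likelihood test), and was called, at 2.00, without CpG treated SjSS replicate 3. The 3 fibroblast markers moved with the strain, at 139 to 218 CPM in SjSS and 34.7 to 121 CPM in B6 samples, and their part in the strain differences was not tested.

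**Figure D4:**
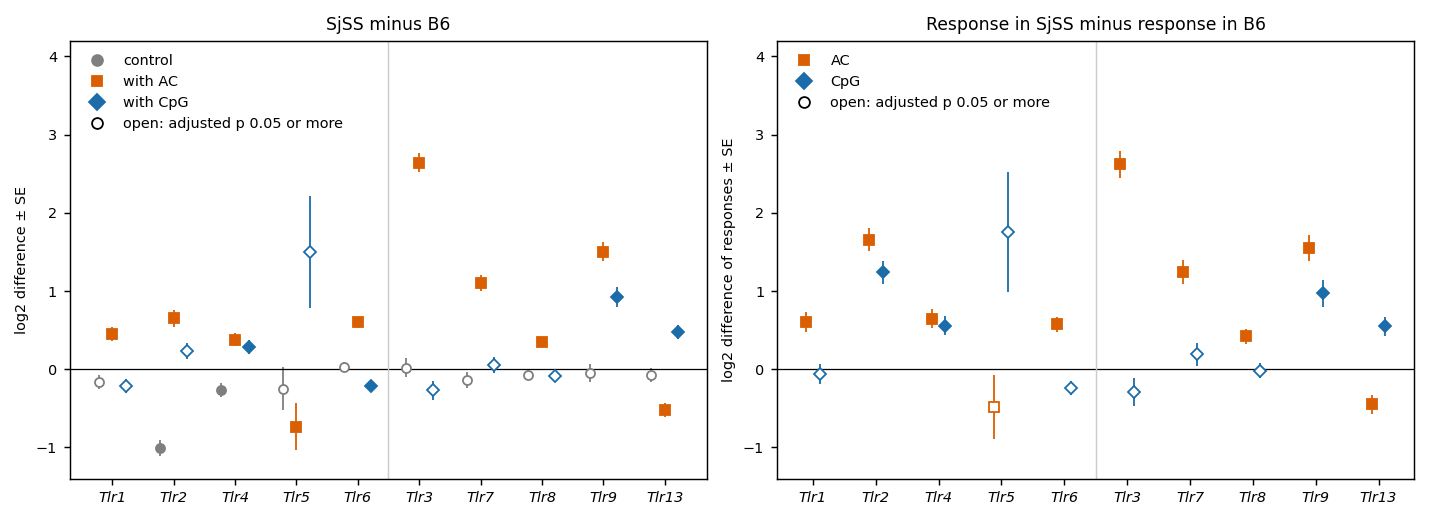
Left, the log2 difference SjSS minus B6 of each TLR gene with its SE, without treatment (grey circles), with ACs (orange squares) and with CpG (blue diamonds). Right, the difference of the responses, SjSS minus B6, for ACs and CpG, with open points at an adjusted p of 0.05 or more; *Tlr3* is highest in both AC series, at 2.64 and 2.62, and *Tlr2* is the lowest point without treatment.

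The other genes of the TLR pathway were read from 7 lists with 43 genes, of which 42 were tested. Over the lists, 13 genes rose and 8 fell with ACs in B6 BMDMs and 26 rose and 6 fell in SjSS BMDMs, where 20.0% and 18.3% of all genes tested did in B6 and 28.6% and 29.4% in SjSS BMDMs. With CpG 17 rose and 14 fell in B6 and 20 rose and 14 fell in SjSS BMDMs, where 28.1% and 29.8% of all genes did in B6 and 27.8% and 26.4% in SjSS BMDMs. The interaction of strain and AC passed the test as higher in SjSS for 19 and as lower for 4, against 19.6% and 18.3% of all genes, and that of strain and CpG for 3 and 2, against 3.23% and 2.62%. The counts of each list below are to be read against these shares. The median log2 fold change of the 42 genes was 0.03 and 0.28 with ACs and 0.05 and 0.16 with CpG, in B6 and SjSS BMDMs, beside 0.00, -0.02, -0.04 and -0.01 over all genes tested. *Tlr11*, a further TLR gene, was outside the members and had 2, 0 and 0 counts in AC treated B6 and 26, 13 and 35 counts in AC treated SjSS BMDMs. Its level in AC treated SjSS BMDMs was 13.5 times that of the control, which had 6 counts (exact 95% interval 5.92 to 38.0). *Tlr11* passed the filter on low counts only through the AC treated SjSS samples, so that its rise and its interaction are not support. It is counted among the 26 genes that rose and the 19 interactions above. *Tlr12* did not pass the filter.

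Of the 6 coreceptors and binding proteins, 2 rose and 2 fell with ACs in B6, and 4 rose and 0 fell in SjSS BMDMs. *Cd14*, which hands lipopolysaccharide to TLR4, rose by 0.95 in B6 and 2.10 in SjSS BMDMs. *Cd180*, a TLR4-like protein without a TIR domain, was at 0.01 in B6 and rose by 1.12 in SjSS BMDMs, and *Ly86*, its partner, fell in B6 (-0.52) and rose in SjSS BMDMs (0.53). The smallest of the rises in SjSS BMDMs was that of *Ly96* (0.27), which encodes the MD-2 partner of TLR4. With CpG, 2 rose and 4 fell in B6 and 3 rose and 2 fell in SjSS BMDMs, from *Cd14* (1.36 and 1.68) to *Ly86* in B6 (-0.76) and *Lbp*, the lipopolysaccharide-binding protein, in SjSS BMDMs (-0.87).

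Of the 9 genes for trafficking, folding and processing, 3 rose and 2 fell with ACs in B6 and 5 rose and 1 fell in SjSS BMDMs, with no call by the fold threshold. The largest rise was that of *Ctsl* in B6 (0.76) and of *Lrrc59*, a partner of UNC93B1 in TLR trafficking, in SjSS BMDMs (0.79), and the largest fall was that of *Hsp90b1* in B6 (-0.40) and of *Cnpy3* in SjSS BMDMs (-0.31), which encode chaperones of TLRs. *Unc93b1*, which carries the endosomal TLRs, was at -0.02 in B6 and rose by 0.38 in SjSS BMDMs, and with CpG it did not pass the test (0.08 and 0.01). With CpG, 3 rose and 5 fell in each strain, from *Lrrc59* (0.98 in B6 and 0.82 in SjSS) to *Cnpy3* in B6 (-0.44) and *Lgmn*, an endosomal protease, in SjSS BMDMs (-0.45). The cathepsins *Ctsb*, *Ctsl* and *Ctss*, proteases that cut endosomal TLRs, were among those that fell. Their log2 fold changes were between -0.24 and -0.39 in both strains. In the 7 genes for nucleic acid handling, 0 rose and 2 fell with ACs in B6 and 4 rose and 1 fell in SjSS BMDMs. *Rnaset2b* and *Rnaset2a*, lysosomal RNases, fell in B6 (-0.18 and -0.25) and rose in SjSS BMDMs (1.304 and 0.82), and as near-identical copies they may share reads. *Dnase2a*, the lysosomal DNase, fell with ACs in SjSS BMDMs (-0.45). With CpG, 3 rose and 4 fell in B6 and 2 rose and 4 fell in SjSS BMDMs, from *Rnaset2a* (0.41 and 0.29) to *Dnase2a* (-0.81 and -0.64).

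Of the 5 adaptors, 2 rose with ACs in B6 and 2 rose and 1 fell in SjSS BMDMs. *Myd88* rose by 0.71 in B6 and 2.13 in SjSS BMDMs. The smaller rise in B6 was that of *Ticam2* (0.53), which encodes the TRAM adaptor, and *Ticam1*, which encodes TRIF, was at 0.01 in B6 and fell in SjSS BMDMs (-0.34). With CpG, 4 of the 5 rose in each strain, from *Ticam2* (2.27 in B6 and 1.64 in SjSS) to *Ticam1* (1.02 and 0.83). Of the 8 kinases and ligases, 3 rose and 1 fell with ACs in B6 and 6 rose and 1 fell in SjSS BMDMs, from *Ikbke* (1.24 in B6 and 1.92 in SjSS) to *Irak4* (-0.22 and -0.54). With CpG, 3 rose and 0 fell in B6 and 6 rose and 1 fell in SjSS BMDMs, from *Ikbke* (1.87 and 2.16) to *Tbk1* in B6 (0.21) and *Irak4* in SjSS BMDMs (-0.20). Of the 6 negative regulators, 3 rose and 1 fell with ACs in B6 and 4 rose and 2 fell in SjSS BMDMs. *Tnfaip3*, the A20 deubiquitinase, rose by 1.47 in B6 and 3.31 in SjSS BMDMs, and with CpG by 2.68 and 2.76. *Sigirr*, a decoy-like receptor, fell with ACs (-1.03 and -0.70) and with CpG in both strains (-1.73 and -1.76). Its counts were low, at 57, 43 and 85 in control B6 and 20, 15 and 9 in CpG treated B6 BMDMs. With CpG, 2 of the regulators rose and 1 fell in B6 and 2 rose and 2 fell in SjSS BMDMs.

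**Figure D5:**
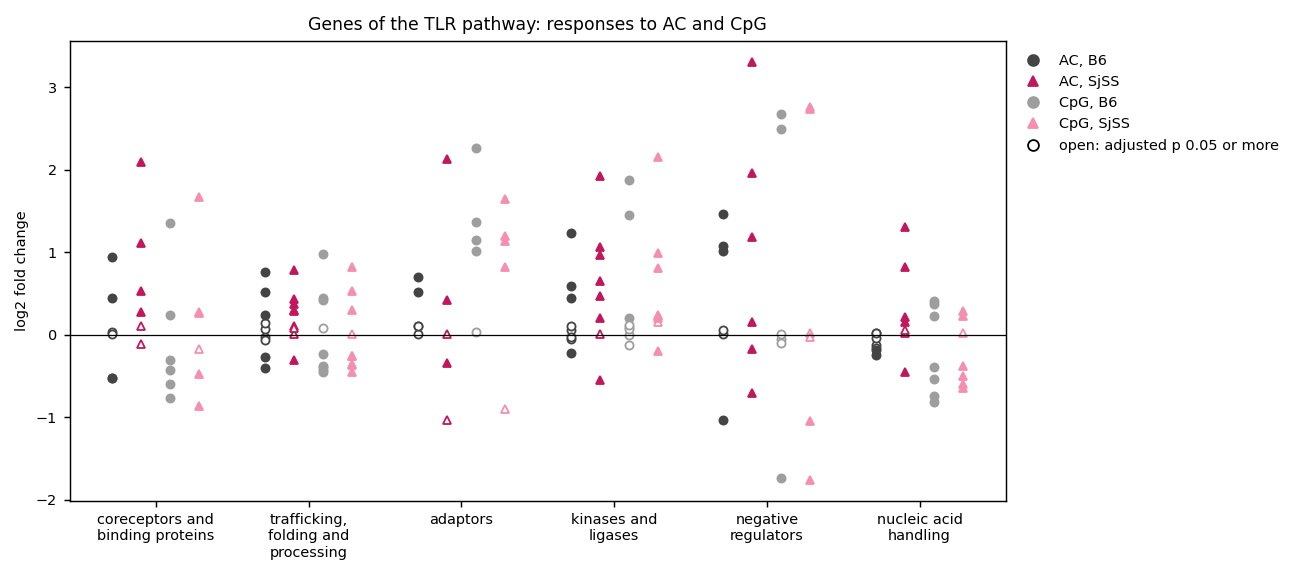
Each point is the log2 fold change of 1 of the 41 genes tested in 6 lists of the TLR pathway (*Tlr11* is not plotted), in the AC and CpG responses of B6 (circles) and SjSS BMDMs (triangles); open points have an adjusted p of 0.05 or more. *Tnfaip3*, at 3.31 with ACs in SjSS BMDMs, is the highest point plotted.

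Members differed in which genes followed a similar course over the 18 samples, by Pearson's r of log2 CPM over all genes tested. These r are descriptions, since the 18 points fall into 6 groups and share libraries. The genes closest to *Tlr3* were *Setdb2* (r = 0.994) and *Ppm1k* (0.990), and those closest to *Tlr9* were *Tnks1bp1* (0.981) and *Tspan33* (0.980). *Tlr2* was closest to *Nfkbie* (0.985), an inhibitor of NF-kB, and *Rab20* (0.976), and *Tlr1* to *Ms4a6c* (0.992) and *Pgap2* (0.990). *Tlr7* was closest to *Scpep1* (0.968) and *Il21r* (0.967), and *Tlr13* to *Snx24* (0.982) and *Snx30* (0.981). *Tlr5* was closest to *Cnnm2* (0.984) and *Wdpcp* (0.978), and *Tlr6* to *Srpr* (0.963) and *Lpcat2* (0.961). The lowest r were those of *Tlr4*, to *Elk4* (0.925) and *Rsbn1l* (0.920), and of *Tlr8*, to *Spry2* (0.881) and *I830077J02Rik* (0.875). The closest gene to a member was in no case another member.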

How the data were processed

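RNA was sequenced from 18 BMDM samples. Gene values are the authors' estimated counts, deposited without normalization, and 41.1% of them were not whole numbers. The submitters' processing notes name STAR, Partek and DESeq2 (3.13), and coordinates are of mm10. Here counts were rounded and tested with edgeR 4.0.16 (R 4.3.3), by the quasi-likelihood test with TMM, filterByExpr and Benjamini-Hochberg adjustment, on 15789 genes and 6 group means. DESeq2 1.42.0, other scalings, filters and fold thresholds, a replicate block and leaving out each sample were alternatives. The scripts were tested on simulated data. Total counts were 30688336 to 57139662 per sample, and exact intervals cover counting error only. No replicate pair held identical values. The main fit took no samples as pairs. In the Results, a value with the replicate block within strain was set beside it where same-numbered deviations from the group means correlated over 0.1 in all 3 pairs. Among the AC and CpG responses this held only for control and CpG samples of B6 (r = 0.260, 0.264 and 0.137).

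The members and lists were chosen with earlier results of these data known. All 10 members are named. Other pathway genes are named by the highest and lowest log2 fold change that passed in their list and comparison, and *Unc93b1*, *Cd180*, *Ctsb* and *Ctss*, like the 1 Mb neighbours, were chosen after their values were seen. Likeness names the 2 genes with the highest Pearson's r. Exon lengths and shared stretches were taken from GENCODE M21, and promoter windows from RefSeq (GRCm38.p6).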

Additional observations from a re-analysis of the deposited data

Results flagged for a closer look

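Responses that differed between the strains by the interaction of strain and treatment (SjSS minus B6, log2 scale, adjusted p under 0.05 by edgeR) are listed here. With ACs they were those of *Tlr3* (2.62), *Tlr2* (1.66), *Tlr9* (1.55), *Tlr7* (1.24), *Tlr4* (0.65), *Tlr1* (0.61), *Tlr6* (0.57), *Tlr8* (0.42) and *Tlr13* (-0.45). With CpG they were those of *Tlr2* (1.24), *Tlr9* (0.97), *Tlr4* (0.56) and *Tlr13* (0.55). *Tlr13* was the one member whose AC and CpG interactions both passed with opposite signs. The interactions with ACs and CpG share the control samples of both strains.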

How the results depend on the processing

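Of 1259 log2 fold changes of members under the alternatives, 1207 kept their direction and side of the threshold, 35 no longer passed, 6 passed newly and 11 changed sign. The cause was not tested. All that changed sign had not passed the test and came from leaving out 1 sample. Over the main fit and all alternatives, the CpG interaction ranged from -0.13 to 0.021 for *Tlr1* and from -0.081 to 0.049 for *Tlr8*. The strain difference with CpG ranged from -0.056 to 0.13 for *Tlr7*. The untreated strain difference ranged from -0.087 to 0.11 for *Tlr3*, from -0.011 to 0.073 for *Tlr6* and from -0.15 to 0.011 for *Tlr13*.

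Without a fold threshold, members called higher and lower numbered 2 and 4 (ACs, B6), 7 and 2 (ACs, SjSS), 4 and 5 (CpG, each strain), 8 and 2 (strains with ACs), 3 and 1 (strains with CpG) and 8 and 1 (AC interaction), with 2 lower between untreated strains and 4 higher for the CpG interaction. At a log2 fold change over 1 the counts that moved became 1 lower (ACs, SjSS), 2 higher and 3 lower (CpG, B6), 1 lower (untreated strains), 3 higher (strains with ACs), 4 higher (AC interaction) and 1 higher (CpG interaction). Leaving out each sample gave 3 to 4 higher and 0 to 1 lower (ACs, SjSS), 3 to 4 higher (AC interaction), 0 to 2 higher (CpG interaction) and 0 to 1 higher (strains with CpG), and the other counts of calls did not move. Per length of genomic span, 20 of the 60 places in the order were those per length of exon.

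Same-numbered samples of a strain had correlations of deviations from 0.0198 to 0.264, all positive, with 9 of 18 over 0.1, against a median of -0.052 for different numbers of a strain, and those of different strains from -0.0939 to 0.0596. Not every sample correlated best with its own number. With the replicate block, 16 calls of members were made, as without it, and 61 in place of 62 passed the test, *Tlr8* with CpG in SjSS BMDMs having an adjusted p of 0.0548 by edgeR. With the replicate block within strain, possible for the responses and interactions, *Tlr8* with CpG in B6 passed (adjusted p = 0.0402 by edgeR, 10 members in place of 9), and no other call of a member changed. Over all genes, the CpG interaction passed for 510 as higher and 413 as lower, and with DESeq2 for 601 and 762. The low counts of *Tlr5* limit what was detectable for it.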
